A study of Bos taurus with 23 samples.

Results

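PPP1R1B (ENSBTAG00000006035), LOC107131247 (ENSBTAG00000047764) and ENSBTAG00000038233 are 3 of the 24616 Ensembl genes counted in peripheral white blood cells (PWBC) of beef heifers. They were chosen by their place in gene pairs of experimental station A. A top scoring pair is a pair of genes whose order of expression differs between the outcomes, and a score of 1 means that this order separates the outcomes without exception. Of the 20 pairs with the largest rank difference among those of score 1, 16 held one of the 3 genes, with 6 for ENSBTAG00000038233, 5 for PPP1R1B and 5 for LOC107131247. The next gene by number of pairs, ENSBTAG00000018942, was in 2 of the 20.

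Blood was drawn from 23 Angus x Simmental crossbred heifers at the time of artificial insemination (AI), and each heifer gave 1 library. All of them had gone through the same kind of estrous synchronization and fixed-time AI and were afterwards exposed to bulls for natural breeding (NB). In station A, 6 of the heifers had conceived to AI (AI-pregnant) and 5 had conceived later to NB (NB-pregnant). In station B, 6 were AI-pregnant, and the remaining 6 did not conceive in the season (non-pregnant). The contrast of the 2 outcomes within station A served to choose the genes, so their values there are a description without a test. The heifers of station B were not used for the choice, and an outcome comparison was tested there. It set non-pregnant against AI-pregnant heifers, so it does not repeat the contrast that chose the genes.

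PPP1R1B encodes a dopamine- and cAMP-regulated phosphoprotein. When protein kinase A phosphorylates it, it inhibits protein phosphatase 1, and when CDK5 phosphorylates it, it inhibits protein kinase A instead, and the protein is best known from neurons that receive dopamine. LOC107131247 is annotated as similar to multidrug resistance-associated protein 4. That family of ATP-binding cassette transporters exports organic anions from cells, including cyclic nucleotides and prostaglandins. ENSBTAG00000038233 is known here by its identifier alone, and no role is given for it. Gene lengths recovered from the authors' FPKM were 1696, 2507 and 1951 bases, in the order PPP1R1B, LOC107131247 and ENSBTAG00000038233.

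Libraries held 4826003 to 20053283 counted read pairs in station A and 5577129 to 20434401 in station B, so the limit that a count of 0 allows (3 read pairs) lies between 0.147 and 0.622 CPM (the count scaled to the library total). All 3 genes passed the filter of the study, which asks for a CPM above 1 in at least 6 libraries per station and leaves 12128 retained genes in station A and 10832 in station B. Some libraries stood apart in both stations. In station A the 100 most abundant genes took 24.1 to 29.4% of the counts in 5 libraries (2 AI-pregnant and 3 NB-pregnant heifers) and 13.1 to 18.4% in the other 6. In station B the first principal component of log2 CPM, with 85.5% of the variance, set SL253804 and SL253811 (non-pregnant) and SL253808 (AI-pregnant) apart from the other 9 libraries. The identity of the blood cell types behind these differences was not analysed here, and in bulk PWBC fewer cells of a type cannot be told apart from less RNA per cell.

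On the scale per gene length, PPP1R1B was the most abundant of the 3 genes in station A, with a median of 69.9 FPKM over 11 heifers, above 86.7% of the retained genes. ENSBTAG00000038233 had a median of 5.28 FPKM and LOC107131247 one of 1.08 FPKM, the latter above 6.6% of the retained genes. In station B the order was different. ENSBTAG00000038233 had a median of 21.9 FPKM, PPP1R1B 16.8 FPKM and LOC107131247 5.94 FPKM, above 59.5, 53.9 and 34.3% of the retained genes. The ranges of the 3 genes overlapped widely in station B, and levels were not tested between stations, which were filtered separately.

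**Figure D1:**
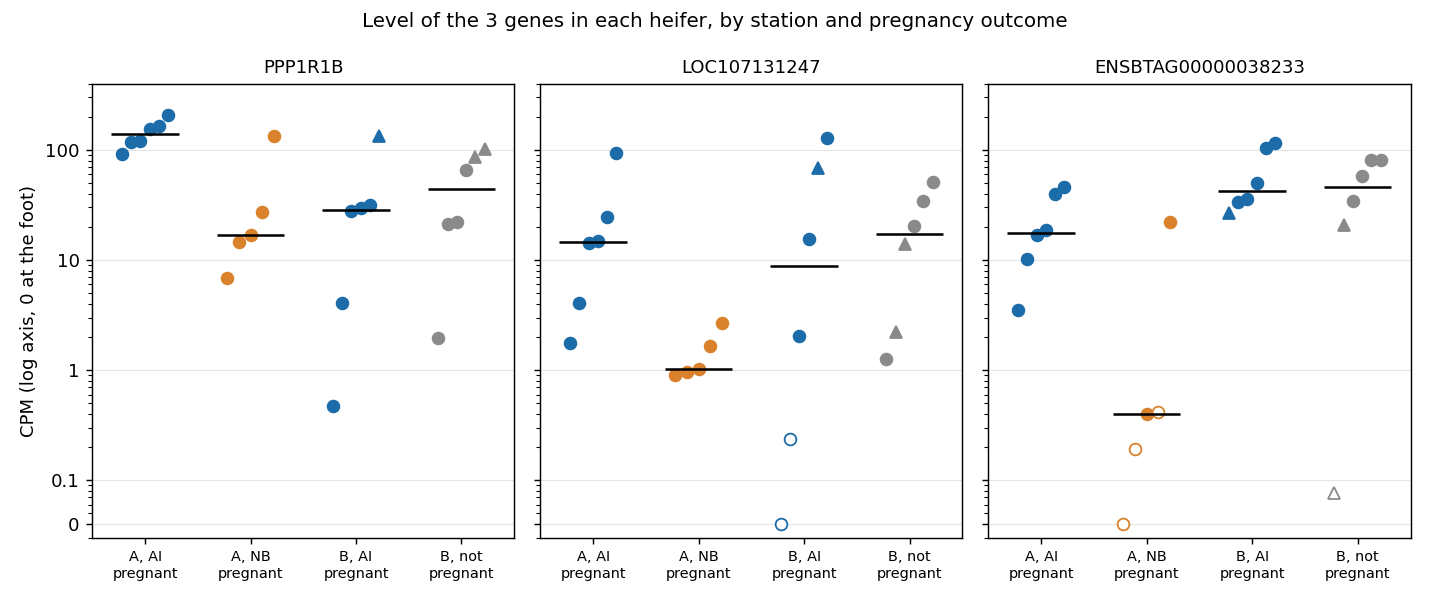
CPM (log axis, with counts of 0 drawn at the foot) of PPP1R1B, LOC107131247 and ENSBTAG00000038233 in each of the 23 heifers, by station and outcome. Bars are medians, triangles are SL253804, SL253808 and SL253811, and open symbols rest on fewer than 3 read pairs. In station A the high heifers of PPP1R1B and ENSBTAG00000038233 include 1 NB-pregnant heifer, at 134 and 22.2 CPM, while in station B the outcomes overlap for each gene.

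PPP1R1B in station A was at 92.4 CPM in the lowest AI-pregnant heifer, at a median of 138 and at 209.7 in the highest, with a mean of 144 ± 41.7 CPM (SD, n = 6). The 5 NB-pregnant heifers had 17.0 (SL220767), 134 (SL220768), 6.93 (SL220769), 27.6 (SL220773) and 14.5 CPM (SL220774), a mean of 39.9 ± 53.0 (SD, n = 5). Thus 4 NB-pregnant heifers lay below every AI-pregnant heifer, and SL220768 lay within the AI-pregnant range. The widest step in the ranked values ran from 27.6 to 92.4 CPM and left 7 heifers above it.

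ENSBTAG00000038233 divided the heifers of station A at the same place. AI-pregnant heifers had 3.49 CPM at the lowest (SL220771), a median of 17.7 and 45.9 at the highest (SL220764). NB-pregnant heifers had 0 read pairs in SL220767, which allows up to 0.547 CPM, and 0.399 CPM in SL220769, 0.192 in SL220773 and 0.414 in SL220774. The remaining NB-pregnant heifer, SL220768, had 22.2 CPM, above the AI-pregnant median. The 4 low values rest on 0, 8, 1 and 2 read pairs, so their order is within counting error. With values under 3 read pairs set to 3 pairs, the widest step lay between these 4 heifers and the 7 others, and the 7 heifers above it were the same 7 as those of PPP1R1B, including SL220768.

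LOC107131247 was lower and had a different profile. In AI-pregnant heifers it was at 1.74 CPM in SL220771 and 4.09 in SL220772, at 14.2 in SL220775, 14.9 in SL220764 and 24.8 in SL220765, and at 92.9 in SL220766. The NB-pregnant heifers ranged from 0.898 (SL220769) to 2.69 CPM (SL220774), with 1.02 in SL220768, the heifer that was high for the other 2 genes. The lowest AI-pregnant value lay within the range of the NB-pregnant heifers. The 5 NB-pregnant values rest on 5 to 18 read pairs each, and that of SL220768, on 7 read pairs, has a 95% exact binomial interval of 0.412 to 2.11 CPM. The lowest AI-pregnant value, that of SL220771, rests on 9 read pairs, with an interval of 0.798 to 3.31 CPM. Such intervals cover counting error only.

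Split by class of library, the values of the 3 genes differed in pattern. In the 5 top-heavy libraries of station A, which were also the shallowest (4826003 to 6105250 read pairs), PPP1R1B was at 155 and 164 CPM in the AI-pregnant and at 14.5 to 27.6 in the NB-pregnant heifers. ENSBTAG00000038233 was at 3.49 and 16.9 CPM in these AI-pregnant heifers, against 0 to 0.414 in the NB-pregnant. In the 6 other libraries, the 4 AI-pregnant heifers lay above SL220769 for both genes and on both sides of SL220768. LOC107131247 differed between outcomes mainly among the 6 other libraries, where AI-pregnant heifers had 14.2 to 92.9 CPM and NB-pregnant heifers 0.898 and 1.02. Among the top-heavy libraries its ranges overlapped, at 1.74 and 4.09 CPM against 0.958 to 2.69. The part of the library class in these values was not tested.

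Fitted with edgeR, the NB-pregnant minus AI-pregnant log2 fold change in station A was -1.82 (SE 0.63) for PPP1R1B. It was -3.89 (SE 0.93) for LOC107131247 and -2.23 (SE 1.15) for ENSBTAG00000038233. In the same order, mean log2 CPM differed by -2.43, -2.91 and -4.16, so the gene with the largest difference depended on the scale. These values describe the contrast that chose the genes. A single heifer weighed on each fitted estimate. Without SL220768 the estimate was -2.87 for PPP1R1B and -6.10 for ENSBTAG00000038233, and without SL220766 that of LOC107131247 was -2.83. By the study's rule, in which edgeR and DESeq2 must each give an unadjusted P of at most 0.01, 18 of 12128 genes (0.148%) were called, PPP1R1B and LOC107131247 among them. None of the 3 genes had outcome groups without overlap in station A, where 18 of 12128 genes (0.148%) did.

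**Figure D2:**
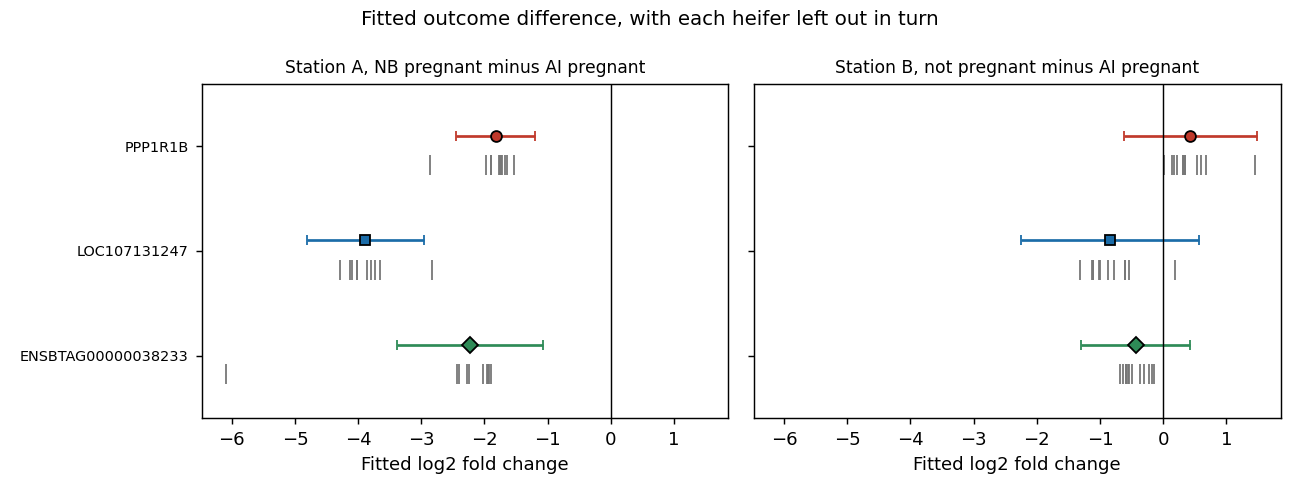
Fitted log2 fold change against AI-pregnant heifers for the 3 genes in station A (left, NB-pregnant, description only) and station B (right, non-pregnant). Coloured symbols are the fit to all heifers with bars of 1 SE, and grey ticks are the fits with each heifer left out in turn. In station A the tick of ENSBTAG00000038233 at -6.10 is the fit without SL220768, and in station B ticks of LOC107131247 lie on both sides of 0.

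In station B none of the 3 genes differed between non-pregnant and AI-pregnant heifers beyond the spread between heifers. PPP1R1B was at 0.472 CPM in the lowest AI-pregnant heifer (SL253803, 4 read pairs), at a median of 28.5 and at 133 in the highest (SL253808). In non-pregnant heifers it was at 1.97 CPM at the lowest (SL253814), at a median of 43.8 and at 102 at the highest (SL253811). Both groups thus spanned nearly the whole range of the station. The fitted log2 fold change was 0.43 (SE 1.05), with an adjusted p of 0.887 in edgeR's quasi-likelihood test, and an exact permutation test of mean log2 CPM gave p = 0.5 (two-sided, n = 6 and 6, unadjusted, smallest p possible 0.00216). Without SL253811 the log2 fold change was 0.01, and without SL253808 it was 1.46.

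LOC107131247 in AI-pregnant heifers of station B had 0 read pairs in SL253810 (up to 0.331 CPM), 2 read pairs or 0.236 CPM in SL253803, a median of 8.74 and 128 CPM in SL253807. Non-pregnant heifers had 1.26 CPM at the lowest (SL253806), a median of 17.2 and 50.8 at the highest (SL253814). AI-pregnant heifers held both the lowest and the highest values, and the direction depended on the scale. The fit to counts, which follows the means of 35.7 and 20.6 CPM, gave a log2 fold change of -0.84 (SE 1.41, adjusted p = 0.874 in edgeR's quasi-likelihood test). Mean log2 CPM was 0.97 higher in the non-pregnant heifers, with p = 0.591 in the exact permutation test (two-sided, n = 6 and 6). Without SL253807 the fitted value changed sign to 0.19.

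ENSBTAG00000038233 was present at 20.8 CPM or more in 11 of the 12 heifers of station B. AI-pregnant heifers ranged from 26.7 CPM (SL253808) through a median of 42.7 to 115 (SL253807). The non-pregnant heifer SL253804 had 1 read pair of 13010572, or 0.0769 CPM (95% exact interval 0.00195 to 0.428), and the other 5 non-pregnant heifers had 20.8 (SL253811), 34.6 (SL253814), 57.6 (SL253805), 80.5 (SL253806) and 81.6 CPM (SL253813). Apart from that 1 heifer the groups overlapped, and the 2 highest values, 103 and 115 CPM, were those of AI-pregnant heifers. The log2 fold change was -0.44 (SE 0.86, adjusted p = 0.874 in edgeR's quasi-likelihood test), and the exact permutation test gave p = 0.435 (two-sided, n = 6 and 6). Leaving out SL253804 moved the fitted value to -0.17.

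Over all genes of station B the quasi-likelihood test called 0 of 10832 (0%), with 48 at an unadjusted p under 0.05, and DESeq2 also called 0, with 91. Without SL253808 the quasi-likelihood test again called 0, but 2233 genes had an unadjusted p under 0.05, and the smallest adjusted p was 0.197. The study's rule called 6 genes (0.0554%), none of the 3 members, and outcome groups did not overlap for 3 genes (0.0277%), again without a member. With a background of calls this low, the 0 of 3 calls is not a result about these genes.

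The libraries that stood apart in station B coincided with extremes of the members. SL253808, SL253811 and SL253804 held the 3 highest values of PPP1R1B, at 133, 102 and 86.2 CPM, against 0.472 to 65.4 in the 9 others. The same libraries held the 3 lowest values of ENSBTAG00000038233, at 26.7, 20.8 and 0.0769 CPM, against 33.4 to 115. LOC107131247 was at 68.5, 13.8 and 2.23 CPM in them, within the 0 to 128 CPM of the others. Without these 3 libraries the log2 fold changes were 0.50 for PPP1R1B, -0.18 for LOC107131247 and -0.13 for ENSBTAG00000038233, and the exact permutation tests gave p = 0.675, 0.349 and 0.984 (two-sided, n = 5 and 4). The part of this library class in the values was not tested.

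The spread of the 3 genes between heifers of the same outcome was wide for their level. Spread was taken as the SD of log2 CPM within outcome groups and set beside the 200 genes of nearest mean in the same station. In station A it was 1.11 for PPP1R1B, above 92.5% of those genes, 1.43 for LOC107131247, above 95.5%, and 1.93 for ENSBTAG00000038233, above 99.5%. The median of the genes of like mean was 0.45, 0.74 and 0.77. In station B the SD was larger for each gene, at 2.43, 3.08 and 2.27, above 99, 99.5 and 99% of the genes of like mean, whose medians were 0.66, 0.82 and 0.61.

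Single heifers carried much of this spread in station A. Without SL220768 the share of genes of like mean with a smaller SD was 81% for PPP1R1B and 74% for ENSBTAG00000038233, and without SL220766 it was 73.5% for LOC107131247. In station B ENSBTAG00000038233 dropped to 83% without SL253804, while PPP1R1B and LOC107131247 stayed at 96.5% or above with any 1 heifer left out. Without the 3 libraries that stood apart the SD was 2.30 for PPP1R1B and 3.23 for LOC107131247, larger than for any of the 200 genes of like mean, and 0.75 for ENSBTAG00000038233, above 97.5% of them. As the coefficient of variation of CPM, which gives high values more weight, the spread of PPP1R1B exceeded 79.5% of genes of like mean in both stations.

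The biological coefficient of variation of edgeR was also compared with its trend over all genes of like level. In station A the ratio of the gene's own value to the trend at its level was 2.55 for ENSBTAG00000038233, the 7th highest of 12128 genes, 1.74 for LOC107131247 (284th) and 1.70 for PPP1R1B (338th). In station B the ratio was 1.87 for LOC107131247 (339th of 10832), 1.58 for PPP1R1B (810th) and 1.41 for ENSBTAG00000038233 (1201st). ENSBTAG00000038233 was thus the most dispersed of the 3 against the trend in station A and the least in station B.

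**Figure D3:**
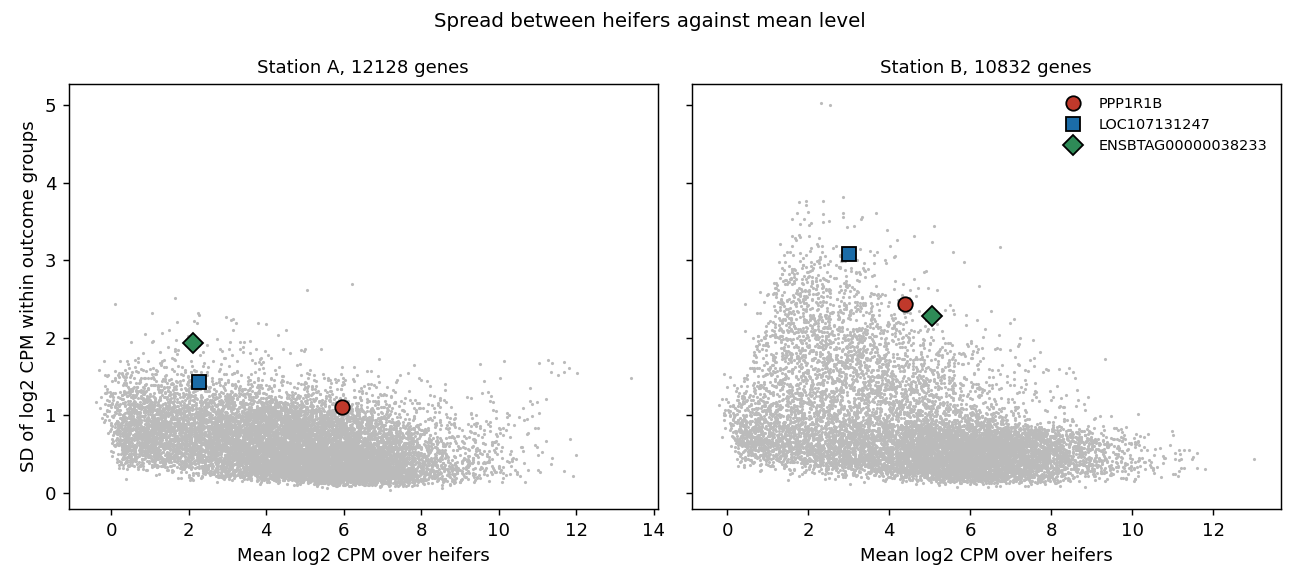
Standard deviation of log2 CPM within outcome groups against mean log2 CPM for the retained genes of station A (left) and station B (right), with the 3 genes marked. The 3 genes lie near the upper edge at their mean level, at 1.11 to 1.93 in station A and 2.27 to 3.08 in station B.

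The heifers with high values were then compared between the genes, as a description. In station A, where the choice of the genes favours values that are high in the same AI-pregnant heifers, the 7 heifers above the widest step were the same for PPP1R1B and ENSBTAG00000038233, and SL220766, the only heifer above the widest step of LOC107131247, was one of them. Within the 6 AI-pregnant heifers, however, log2 CPM of PPP1R1B and ENSBTAG00000038233 had a Pearson r of -0.12 and those of PPP1R1B and LOC107131247 one of -0.73, and ENSBTAG00000038233 and LOC107131247 had 0.35. These 3 values are a description over 6 heifers. In station A PPP1R1B and ENSBTAG00000038233 thus shared the step between 4 low and 7 high heifers, which the choice of the genes favours. An r over 6 heifers, without SL220768, cannot tell whether they also share an order among the high ones.

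In station B the heifers below the widest step were partly shared. PPP1R1B had its widest step between 4.08 and 21.2 CPM, with SL253803, SL253810 and SL253814 below it. LOC107131247 had its widest step between 2.23 and 13.8 CPM, with SL253803, SL253804, SL253806, SL253810 and SL253812 below it, of which SL253803 and SL253810 were low for PPP1R1B too. SL253804 alone was below the step of ENSBTAG00000038233, and it was also below that of LOC107131247. Of the 9 heifers above the step of PPP1R1B, 6 (66.7%) were also above that of LOC107131247, which is 85.7% of its 7. Of the 11 heifers above the step of ENSBTAG00000038233, 8 (72.7%) were above that of PPP1R1B, or 88.9% of its 9, and 7 (63.6%) were above that of LOC107131247, or 100% of its 7. Over all 12 heifers, 9, 11 and 7 lay above the steps of PPP1R1B, ENSBTAG00000038233 and LOC107131247. Overlaps of this size follow largely from those numbers and are given as a description. SL253803 was low for PPP1R1B and LOC107131247 and high for the other gene, with 4 read pairs of PPP1R1B, 2 of LOC107131247 and 875 of ENSBTAG00000038233, or 103 CPM.

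No correlation among the 3 genes passed the test in station B. Over 12 heifers PPP1R1B and LOC107131247 had r = 0.38 (permutation p = 0.23, adjusted over the 3 pairs 0.404) and rho = 0.17 (permutation p = 0.587, adjusted 0.868). For PPP1R1B and ENSBTAG00000038233, r was -0.34 (permutation p = 0.269, adjusted 0.404) and rho -0.50 (permutation p = 0.105, adjusted 0.314). LOC107131247 and ENSBTAG00000038233 had r = 0.15 (permutation p = 0.721, adjusted 0.721) and rho = 0.06 (permutation p = 0.868, adjusted 0.868). Leaving out the 2 heifers farthest from the median of the first gene gave r = 0.43, -0.33 and 0.39. In the 9 heifers without the 3 libraries that stood apart, the values of r were 0.35, 0.11 and 0.16 (exact permutation p = 0.347, 0.771 and 0.677), so the negative sign for PPP1R1B and ENSBTAG00000038233 rested on those libraries.

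**Figure D4:**
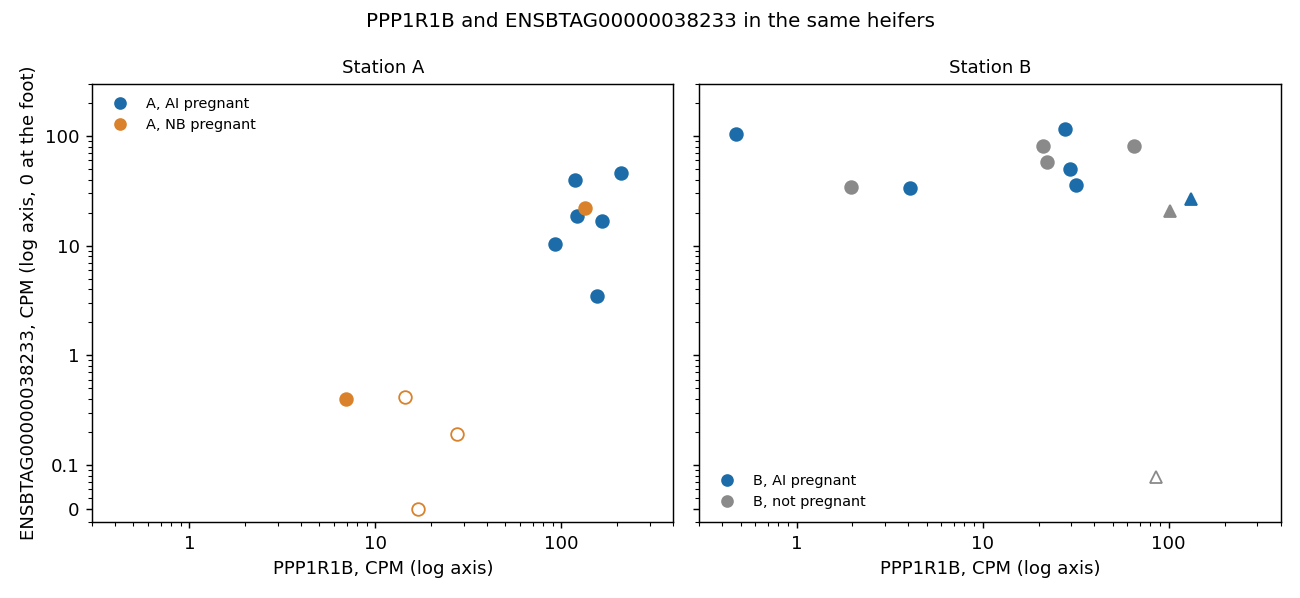
CPM of ENSBTAG00000038233 against CPM of PPP1R1B (both log axes, 0 at the foot of the vertical axis) in the heifers of station A (left) and station B (right), coloured by outcome. Triangles are SL253804, SL253808 and SL253811, and open symbols rest on fewer than 3 read pairs. Station A falls into 4 heifers low and 7 heifers high for both genes, and in station B the 3 triangles lie at high PPP1R1B and low ENSBTAG00000038233.

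The pairs were then followed from station A to station B. In all 74 pairs of score 1 that held a member, of 1521 pairs in all, the member was the gene on top in AI-pregnant heifers. LOC107131247 was in 58 of them, the second most of the 1608 genes that formed such pairs, ENSBTAG00000038233 in 9 and PPP1R1B in 7, against a median of 1 pair per gene. The number of pairs and the place among the top 20 were thus not the same property.

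The 5 partners of PPP1R1B among the top 20 pairs were ENSBTAG00000009207, ENSBTAG00000012299, ENSBTAG00000006984, ENSBTAG00000042946 and ENSBTAG00000042098, with medians of 31.8 to 50.2 FPKM in station A. ENSBTAG00000042946 and ENSBTAG00000042098 are short, at 93 and 69 bases, which leaves few read pairs behind an FPKM. Those of ENSBTAG00000038233 were ENSBTAG00000004046, ENSBTAG00000021647, ENSBTAG00000038843, ENSBTAG00000046218, ENSBTAG00000016498 and ENSBTAG00000019264, with medians of 2.72 to 7.85 FPKM. LOC107131247 was paired with ENSBTAG00000006110, ENSBTAG00000023407, ENSBTAG00000020469, ENSBTAG00000019293 and ENSBTAG00000046928, with medians of 1.53 to 3.82 FPKM.

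In SL220768 PPP1R1B and ENSBTAG00000038233 were high, and a pair of score 1 needs a partner above the member in every NB-pregnant heifer. High partner values in SL220768 therefore follow from the choice of the pairs and are given as a description. In this NB-pregnant heifer PPP1R1B was at 79.0 FPKM, and its 5 partners were at 81.4 to 93.0 FPKM. ENSBTAG00000038233 was at 11.4 FPKM, and its 6 partners were at 11.8 to 14.7 FPKM. SL220768 had the highest value of station A for 3 of the 5 partners of PPP1R1B and for 4 of the 6 partners of ENSBTAG00000038233. The order in the heifer nearest to a change was narrow. On the log2(FPKM + 1) scale, where low values are understated, the smallest difference in favour of the member in an AI-pregnant heifer was 0.002 to 0.50 over the 16 pairs.

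In station B the 16 pairs, chosen with NB-pregnant heifers, did not separate non-pregnant from AI-pregnant heifers. AI-pregnant heifers had 9.67 ± 2.80 of the 16 pairs on the AI side, with the member on top, and non-pregnant heifers 9.33 ± 4.32 (SD, n = 6 each; exact permutation p = 0.942, two-sided). Among AI-pregnant heifers the number ran from 5 (SL253810) through 8, 10, 11 and 11 to 13 (SL253807). Non-pregnant heifers had 1 (SL253804), 9, 10, 11, 12 and 13 (SL253813). The difference of -0.33 turned to 1.33 without SL253804 and to 1.35 without the 3 libraries that stood apart (exact permutation p = 0.556, n = 5 and 4). Of the 16 partners, 11 were among the retained genes of station B.

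The 3 members behaved differently within these numbers. The 6 pairs of ENSBTAG00000038233 were on the AI side in 3 to 6 AI-pregnant and in 2 to 5 non-pregnant heifers, depending on the pair. For the pairs of LOC107131247 the range was 2 to 5 heifers in either group. PPP1R1B was on top of ENSBTAG00000009207 and ENSBTAG00000006984 in 0 of 6 AI-pregnant heifers and in 1 of 6 non-pregnant heifers. It was on top of ENSBTAG00000042946 in all 12. That partner, of 93 bases, did not pass the filter of station B, so its order there says little about PPP1R1B. The score in station B was 0 for 9 of the 16 pairs and at most 0.333.

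**Figure D5:**
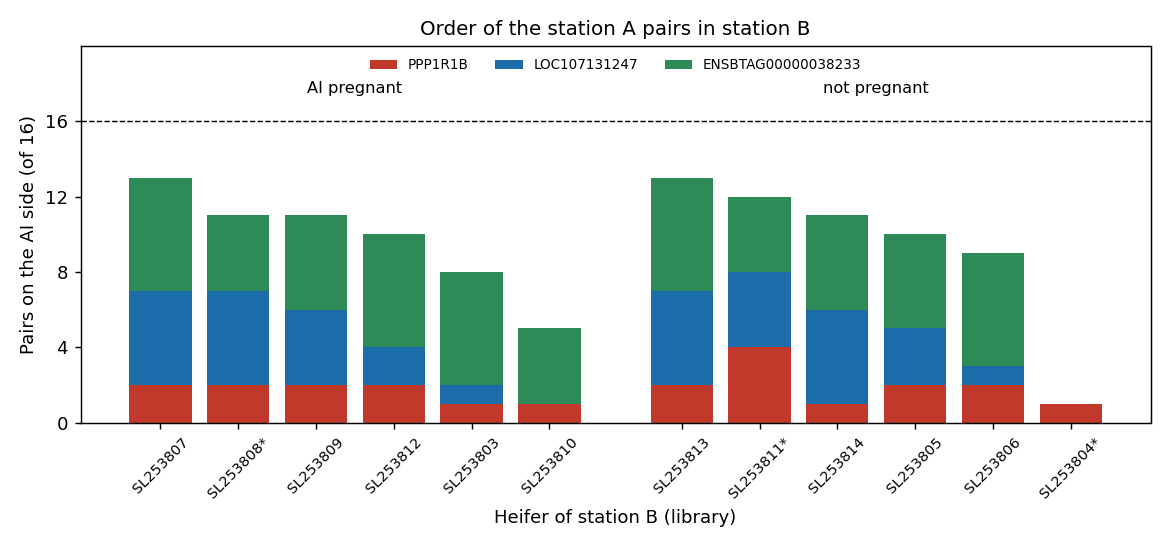
Number of the 16 pairs on the AI side (vertical axis, dashed line at 16) in each heifer of station B, stacked by the member in the pair, with AI-pregnant heifers on the left and non-pregnant heifers on the right. Asterisks mark SL253804, SL253808 and SL253811. Both groups reach 13 pairs, and the lowest bar is the non-pregnant heifer SL253804 with 1.

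The genes most like each member were taken by Pearson r of log2 CPM, centred within station, over 23 heifers and the 10422 genes retained in both stations, as a description. Those of PPP1R1B were ENSBTAG00000004876 (r = 0.73), ENSBTAG00000003352 (0.72) and ENSBTAG00000030529 (0.67). ENSBTAG00000004876 was alike in each station, with 0.69 in A and 0.75 in B, whereas ENSBTAG00000030529 had 0.05 in A and 0.84 in B. Without the 3 libraries that stood apart, these station B values were 0.62 and 0.80. ENSBTAG00000004876 varied less than PPP1R1B in station A, from 61.3 to 141 CPM against 6.93 to 209.7. For LOC107131247 the most alike genes were ENSBTAG00000021077 (0.69), ENSBTAG00000038128 (0.64) and again ENSBTAG00000003352 (0.59). ENSBTAG00000021077, which the study names BOLA-DQB and also called in station A, varied even more there, from 2.34 to 618 CPM. Outcome was not taken out of r, so the contrast that chose the members is part of the likeness in station A.

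ENSBTAG00000038233 had the closest companion, ENSBTAG00000037490, with r = 0.84 over 23 heifers. Within the stations r was 0.78 (A) and 0.94 (B), and in station B it was 0.89 without the 3 libraries that stood apart. ENSBTAG00000037490 was low, at 0 to 4.40 CPM in station A and 0.154 to 9.71 CPM in station B, and it had its lowest station B value in SL253804, as ENSBTAG00000038233 did. It departed from ENSBTAG00000038233 in SL220769, with 3.09 CPM against 0.399. The next genes were ENSBTAG00000033648 (0.75) and ENSBTAG00000043341 (0.74). In station B without the 3 libraries ENSBTAG00000033648 had an r of -0.09, so its likeness there came with those libraries. In station A it was at 17.7 to 31.8 CPM in the top-heavy libraries and at 40.2 to 54.6 in the others. ENSBTAG00000043341 likewise was at 1.34 to 2.29 CPM in the top-heavy libraries and at 3.20 to 4.25 in the others. The part of the library class in the station A likeness was not tested. The members themselves were not each other's nearest genes. By this measure PPP1R1B was the 29th gene most like LOC107131247, and ENSBTAG00000038233 was the 95th. For PPP1R1B, LOC107131247 came 2425th and ENSBTAG00000038233 4370th, and for ENSBTAG00000038233, LOC107131247 came 2684th and PPP1R1B 3845th. The low rank of PPP1R1B and ENSBTAG00000038233 pools unlike stations. Their r was 0.83 in station A, whose outcome contrast chose both, and -0.34 in station B. Over both stations it was 0.17, and 0.48 without the 3 libraries.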

How the data were processed

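Total RNA of PWBC was made into stranded mRNA libraries and sequenced as read pairs. Per the labels and the study's methods, the authors aligned the pairs to UMD 3.1 (the aligner is not given in the sources used here), removed duplicates, pairs with many mismatches and pairs with several alignments, and counted the rest on Ensembl genes with HTSeq. Reads shared by near-identical copies are therefore absent from the counts, so a member with such a copy, as LOC107131247 may be, is counted by its unique reads. The authors deposited the counts as whole numbers without normalization, and FPKM of the retained genes, made with edgeR by dividing counts by gene length and library total.

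The members and lists were chosen with earlier results of these data known. CPM is the count over the library total of all 24616 genes. Stations were fitted apart, with TMM factors, on the genes above 1 CPM in at least 6 libraries, by edgeR's quasi-likelihood test, with p adjusted over the genes tested (Benjamini-Hochberg, threshold 0.05). The SE of a log2 fold change is its absolute value over the square root of the F statistic of that test. Log2 CPM used a prior count of 2. Correlations used 100000 permutations, or all of them for fewer than 10 heifers. Pairs were scored on FPKM with strict inequality, and station B values per gene length were computed from counts and the lengths behind the FPKM. Named genes are the members, their partners in the top 20 pairs and the 3 genes most like each by r. Lists of protein phosphatase 1 regulators, of transporters and of cell type markers were set by symbol and not analysed here, because 0 of 24616 identifiers matched the RefSeq gene table by identifier. The library classes of station A were set at the widest gap in the share of the 100 most abundant genes. Scripts were tested on simulated data. The fits ran in edgeR 4.0.16 and DESeq2 1.42.0 (R 4.3.3), and the rest in Python with numpy, pandas, scipy and matplotlib. Alternatives were other normalization, tests, filters, a principal component as covariate, and leaving out heifers.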

Additional observations from a re-analysis of the deposited data

Results flagged for a closer look

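In 4 of the 12 combinations of gene and group, the highest heifer lay farther from the others than Dixon's 95% limit allows, where chance flags about 1 in 20 if values are normal. CPM of these genes are skewed, and 3 of the 4 values are from station A, whose outcome contrast chose the genes, so the 4 are given as a description. PPP1R1B was at 134 CPM in SL220768 against 6.93 to 27.6 in the other NB-pregnant heifers of station A. ENSBTAG00000038233 was at 22.2 CPM in the same heifer, against 0 to 0.414. LOC107131247 was at 92.9 CPM in SL220766, against 1.74 to 24.8 in the other AI-pregnant heifers of station A. PPP1R1B was at 133 CPM in SL253808, against 0.472 to 31.7 in the other AI-pregnant heifers of station B. SL253808 is one of the libraries of station B that stood apart on the first principal component, and the part of this in the value was not tested. SL220768 was not among the top-heavy libraries of station A, with 16.6% of its counts in the 100 most abundant genes.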

How the results depend on the processing

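The number of genes called in station B was 0 under 6 other settings and with any 1 heifer left out, 1 without SL253804, SL253808 and SL253811, and 6 by the study's rule. In station A the 3 log2 fold changes stayed negative throughout. With 1 heifer left out they ranged from -2.87 to -1.54 for PPP1R1B, from -4.28 to -2.83 for LOC107131247 and from -6.10 to -1.90 for ENSBTAG00000038233. In station B no log2 fold change passed the test under any setting. LOC107131247 ranged from -1.32 to 0.19 with 1 heifer left out, while PPP1R1B stayed positive and ENSBTAG00000038233 negative. The difference in pairs on the AI side was 1 with CPM, 4.17 of 74 pairs with all pairs of a member and 1.35 without the 3 libraries, and ran from -1.27 to 1.33 with 1 heifer left out; the cause was not tested. The r of PPP1R1B and ENSBTAG00000038233 was 0.11 without the 3 libraries, and that of LOC107131247 and ENSBTAG00000038233 ran from -0.063 to 0.29 with 1 heifer left out. The share of genes of like mean with a smaller spread moved with the measure. In station A it was 96% for PPP1R1B against 100 genes, 79.5% by the coefficient of variation and 81 to 97.5% with 1 heifer left out. For LOC107131247 it was 100% by the coefficient of variation and 73.5 to 99.5% with 1 heifer left out, and for ENSBTAG00000038233 74 to 100%. In station B it was 100% against 100 genes for PPP1R1B and LOC107131247, 79.5, 85.5 and 80% by the coefficient of variation, and 96.5 to 100% (LOC107131247) and 83 to 100% (ENSBTAG00000038233) with 1 heifer left out. Without the 3 libraries, a setting added after the data had been seen, it was 100% for PPP1R1B and LOC107131247. No paired analysis was possible because each heifer gave 1 library and had 1 outcome, and the labels match no heifers between groups. Depth limits the low values of ENSBTAG00000038233 and LOC107131247. In NB-pregnant heifers of station A, those of ENSBTAG00000038233 rest on 0 to 8 read pairs apart from SL220768. The values of LOC107131247 in the same group rest on 5 to 18 read pairs, with SL220768 included. In the AI-pregnant heifer SL220771, ENSBTAG00000038233 had 18 read pairs and LOC107131247 had 9.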
